A study of Mus musculus with 18 samples.

Results

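Osteoclasts are large cells with many nuclei that resorb bone, and they form by fusion of macrophage precursors. The genes described here are 10 that mark this route: the receptors Tnfrsf11a (RANK) and Oscar, the transcription factor Nfatc1, the fusion proteins Dcstamp and Ocstamp, the proton pump subunit Atp6v0d2, the resorption enzymes Acp5 and Ctsk, the secreted matrix protein Spp1 and the adhesion protein Cdh1. They are 10 of the 25926 genes of the deposited table, found by their symbols. The list was chosen by differences in FPKM between the groups of these same samples, so the values of the 10 genes are a description. How many of them limma called is printed beside the share over all genes, and no p-value is given for a member.

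RANK ligand (Tnfsf11) binds RANK on a precursor that M-CSF keeps alive, and signals from OSCAR and other receptors that act through ITAM adaptors add to it. Both routes lead to NFATc1, which is known to switch on the fusion and resorption genes. DC-STAMP, OC-STAMP and the d2 subunit are needed for fusion, and E-cadherin (Cdh1) is known to take part in the fusion of macrophages into giant cells as well. Macrophages grown in M-CSF alone hold the precursors of this route.

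The samples were macrophages derived from bone marrow (BMDMs) of mice of the strain C57BL/6J, grown for 7 days with 50 ng/mL M-CSF and held in a Transwell insert with 0.4 μm pores above primary renal tubular epithelial cells (TECs). There were 6 samples in each of 3 groups. In NC the BMDMs received PBS over TECs without crystals. In COM the BMDMs received PBS over TECs exposed to calcium oxalate monohydrate (COM) crystals at 100 μg/mL for 24 h, and in COM+Met the BMDMs over such TECs received Met at 5.0 mM for 24 h, a compound whose full name the labels do not give. The treatments named do not include RANK ligand, so these are cultures of macrophages, not of induced osteoclasts. Levels are FPKM, sequenced fragments scaled to gene length and to the total of the sample. Levels of different genes can therefore be set side by side, while the read depth is unknown. The sources do not say whether the 6 samples of a group were separate cultures or mice, and p-values therefore cover no more than the variation among these libraries, part of which may be technical.

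All 10 macrophage markers averaged at least 1 FPKM in each group, led by Lyz2 with a mean of 11610 FPKM in NC. Samples of a group were not all alike: over 10751 genes, NC-5 and NC-6 correlated with the other NC samples at 0.938 to 0.962, COM-4 to COM-6 with COM-1 to COM-3 at 0.888 to 0.951, and the COM+Met samples with each other at 0.989 to 0.995. Where leaving out these NC or COM samples ended a call or moved a log2 difference of over 0.5 by more than 1.5 times, for a member or for the pathway genes with the 5 largest called rises and falls of a comparison, the value without them is given. The 16 tubular epithelial markers summed to 0.617 to 2.80 FPKM in NC, 0.115 to 0.475 in COM and 0.00637 to 0.229 in COM+Met, with Krt18, Umod, Havcr1 and Cldn2 listed at 0 in all 18 samples. The 11 stromal and osteoblast markers summed to 29.9 to 90.1 FPKM in NC, 8.11 to 54.6 in COM and 4.24 to 10.7 in COM+Met, and the 10 neutrophil markers to 395 to 597, 34.2 to 330 and 19.5 to 45.5 FPKM. Both of these sums were lower with crystals, as several members were, and their part in the results was not tested. In bulk RNA, fewer cells of a type and less RNA per cell cannot be told apart.

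Matched by Ensembl identifier to GENCODE M21 on GRCm38, the 10 genes are protein-coding and lie on different chromosomes. Tnfrsf11a spans 105780718 to 105847981 of chromosome 1 (plus strand), Ocstamp 165393760 to 165400405 of chromosome 2 (minus), Ctsk 95499256 to 95509362 of chromosome 3 (plus), Atp6v0d2 19876841 to 19922605 of chromosome 4 (minus) and Spp1 104435118 to 104441050 of chromosome 5 (plus). Oscar spans 3609813 to 3616157 of chromosome 7 (minus), Cdh1 106603351 to 106670246 of chromosome 8 (plus), Acp5 22126727 to 22135711 of chromosome 9 (minus) and Dcstamp 39745930 to 39760938 of chromosome 15 (plus). The submitters name the builds mm8 and mm9, and the deposited table holds no positions. Acp5 overlaps a non-coding gene on the opposite strand, and Spp1 another annotated gene on its own strand. The library kit does not mark strand, so reads of these partners and of the members cannot be told apart.

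Ctsk and Acp5 encode the enzymes most often used to recognise osteoclasts, and they went opposite ways in COM. Their promoters are shown for that reason, as the 250 bases before each RefSeq start on GRCm38.p6, written 5′ to 3′ on the strand of the gene. Acp5 has 3 starts, numbered from the one farthest upstream, and the deposited values do not separate them. Promoter sequences were found for 5 of the 10 genes. Capitals mark GGAAA, the core that NFAT proteins bind, and TCATGTG, an E-box of the MITF and TFE family, on either strand.
Ctsk, chr3:95498960-95499209: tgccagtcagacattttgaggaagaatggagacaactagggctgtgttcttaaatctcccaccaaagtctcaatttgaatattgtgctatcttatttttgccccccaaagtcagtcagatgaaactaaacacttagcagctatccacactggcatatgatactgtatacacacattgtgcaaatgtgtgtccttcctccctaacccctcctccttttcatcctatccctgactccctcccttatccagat
Acp5 start 1, chr9:22135747-22135996: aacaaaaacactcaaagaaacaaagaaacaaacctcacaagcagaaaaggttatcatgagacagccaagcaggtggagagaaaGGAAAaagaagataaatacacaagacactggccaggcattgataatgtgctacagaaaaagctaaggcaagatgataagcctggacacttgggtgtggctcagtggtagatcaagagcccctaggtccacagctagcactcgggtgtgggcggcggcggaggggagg
Acp5 start 2, chr9:22131866-22132115: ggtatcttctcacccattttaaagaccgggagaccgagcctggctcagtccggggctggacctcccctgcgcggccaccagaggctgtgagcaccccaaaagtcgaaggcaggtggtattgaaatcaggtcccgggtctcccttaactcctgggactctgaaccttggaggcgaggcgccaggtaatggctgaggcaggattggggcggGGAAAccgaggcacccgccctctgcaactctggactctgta
Acp5 start 3, chr9:22130599-22130848: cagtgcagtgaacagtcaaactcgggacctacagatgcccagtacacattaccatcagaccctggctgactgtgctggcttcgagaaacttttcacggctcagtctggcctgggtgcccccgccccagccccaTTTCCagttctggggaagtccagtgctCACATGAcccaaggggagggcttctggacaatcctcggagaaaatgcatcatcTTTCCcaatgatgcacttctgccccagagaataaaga
The NFAT core stood 0 times in the Ctsk window and 1, 1 and 2 times in those of Acp5 starts 1 to 3. Among the other members with a promoter sequence, the core stood 3 times for Oscar, 1 time in each Spp1 window and 0 times for Tnfrsf11a. It was present in 55.6% of 32817 promoter windows of this length, so its presence does not set these genes apart. The E-box stood 1 time, at Acp5 start 3, and in 3.25% of all windows. The AP-1 site TGANTCA, present in 6.75% of all windows, had no match in the 4 windows of Ctsk and Acp5. These are matches of letters, not binding sites.

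The typical gene had a lower FPKM in the groups with crystals. The median log2 difference over all genes tested was -0.27 for COM against NC, 0.0033 for COM+Met against COM and -0.26 for COM+Met against NC. A log2 difference is that of group means of log2(FPKM + 1), which understates changes of low genes, with the standard error (SE) of the difference of means. A gene was tested when its mean over the 12 samples compared reached 1 FPKM. It was counted as called at an adjusted p under 0.05 in limma together with a 2-fold or larger change.

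Atp6v0d2, Ctsk, Cdh1, Ocstamp and Nfatc1 were lower in all 6 COM samples than in any NC sample, and Acp5 was higher in all 6. Of the 8 members tested for COM against NC, 3 were called lower (11.7% of all 10900 genes were) and 1 was called higher (5.99%), while 4 and 1 showed no overlap in these directions (29.7% and 8.6% of all genes). For COM+Met against COM, 7 were tested and limma called 0 (1.61% of all 10364 genes were called lower and 0.608% higher). Of the 7, 2 passed the adjusted p at less than a 2-fold change (13.4% of all genes passed it at any size of change). Atp6v0d2 was the only tested member whose groups did not overlap, being higher in COM+Met (5.83% of all genes were higher without overlap and 5.34% lower). For COM+Met against NC, 4 of 8 were called lower (13.6% of 10786 genes) and 1 higher (5.66%), with 5 and 1 without overlap (43.6% and 14.1% of all genes). Cdh1, called lower in both comparisons with NC, passed the filter only through its level in NC (means of 12.9, 0.555 and 0.0693 FPKM in NC, COM and COM+Met). Nothing is read from these shares, since the list was chosen with these values known, and the comparisons share samples.

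**Figure D1:**
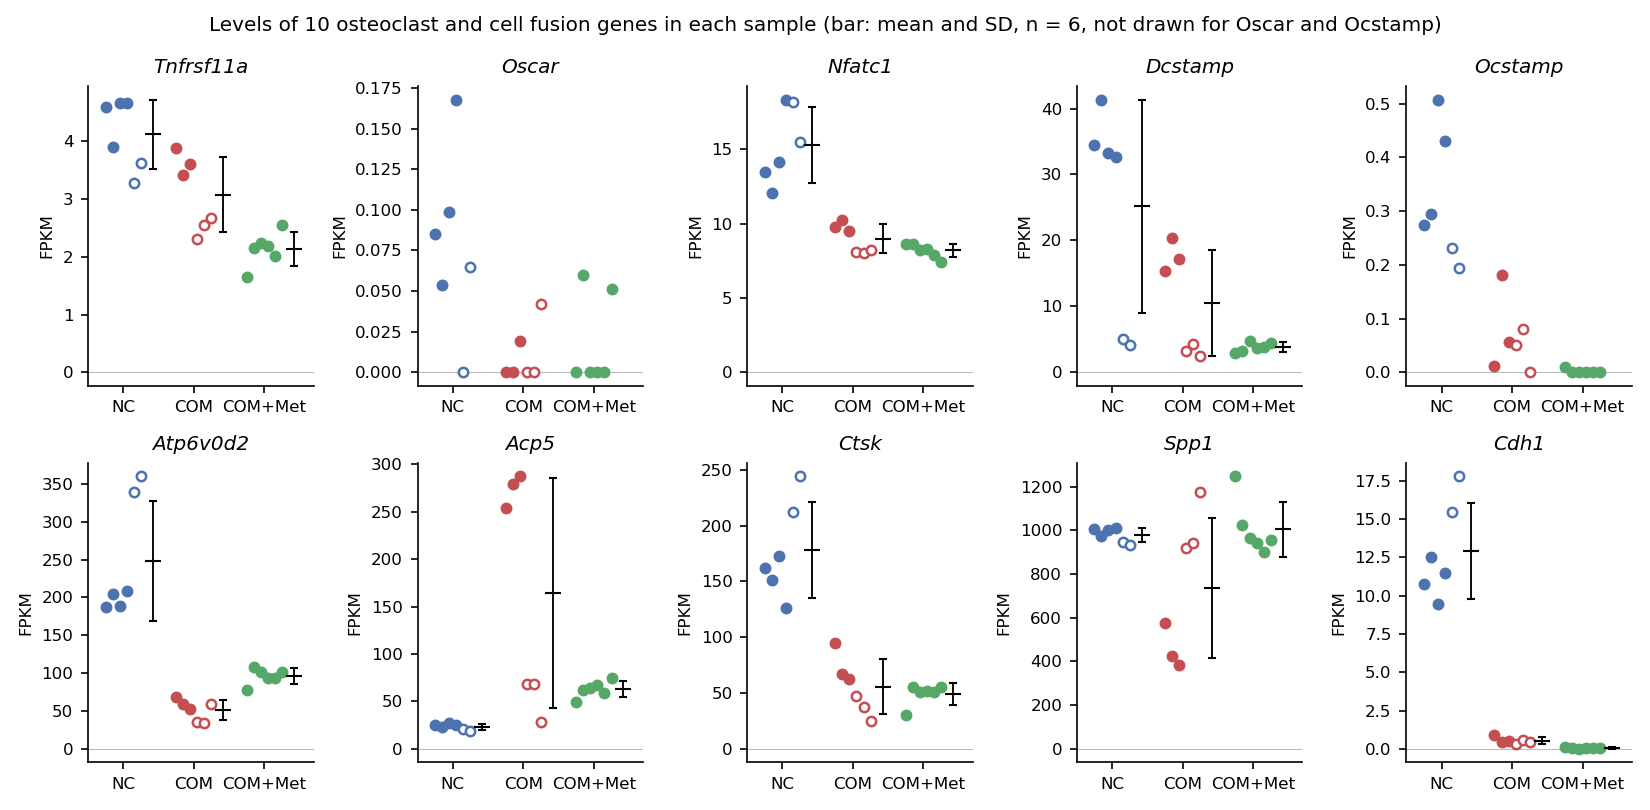
Level in FPKM (vertical axes, linear, a separate scale for each gene) of the 10 genes in each of the 6 samples of NC, COM and COM+Met (horizontal axes, replicates 1 to 6 from left to right). Open circles are NC-5, NC-6, COM-4, COM-5 and COM-6, and black bars give mean and SD, left out for Oscar and Ocstamp, which had samples at 0. Dcstamp, Acp5 and Spp1 split within COM, with Acp5 at 254 to 288 FPKM in COM-1 to COM-3 and at 27.9 to 68.4 FPKM in the others.

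Among the receptors, Tnfrsf11a, which encodes RANK, was present at a few FPKM in every sample. The lowest, median and highest values were 3.28, 4.25 and 4.67 FPKM in NC. They were 2.30, 3.05 and 3.88 FPKM in COM, and 1.64, 2.17 and 2.56 FPKM in COM+Met. Levels thus ran in the order NC, COM, COM+Met, with overlap between NC and COM and between COM and COM+Met, but not between NC and COM+Met. The log2 difference was -0.34 (SE 0.12) for COM against NC, -0.37 (SE 0.11) for COM+Met against COM and -0.71 (SE 0.09) for COM+Met against NC. The first of these is close to the median shift of all genes, and it was -0.09 with median-of-ratios size factors. With the same size factors, the difference of COM+Met against NC was -0.47.

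Oscar, the receptor whose signal adds to that of RANK, was close to 0 throughout. The lowest, median and highest values were 0, 0.075 and 0.168 FPKM in NC, 0, 0 and 0.0422 FPKM in COM and 0, 0 and 0.0599 FPKM in COM+Met. It was listed at 0 in 1 NC, 4 COM and 4 COM+Met samples. It lay below the filter in each comparison, so no difference could be judged for it.

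The ligand of RANK and its decoy receptor were as low. The highest value of Tnfsf11 was 0.235 FPKM in NC, 0.257 FPKM in COM and 0.0274 FPKM in COM+Met. Tnfrsf11b, the decoy receptor osteoprotegerin, lay between 0.188 and 0.404 FPKM in NC, reached 0.101 FPKM in COM, and was listed at 0 in all COM+Met samples. Csf1r, the M-CSF receptor, was in contrast abundant in all groups, from 136 to 356 FPKM in NC, 202 to 464 FPKM in COM and 228 to 277 FPKM in COM+Met. It passed the test in no comparison (adjusted p = 0.235, 0.0761 and 0.751 from limma for COM against NC, COM+Met against COM and COM+Met against NC).

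Nfatc1, the factor that directs osteoclast formation, spans 80606205 to 80713071 of chromosome 18 (minus strand, GRCm38) and overlaps an antisense gene. Its lowest, median and highest values were 12.1, 14.8 and 18.3 FPKM in NC. They were 8.03, 8.89 and 10.2 FPKM in COM and 7.43, 8.27 and 8.65 FPKM in COM+Met. The groups with crystals overlapped with each other and lay below every NC sample. That was judged on FPKM without size factors, and 29.7% of all genes tested were lower without overlap in COM and 43.6% in COM+Met. The difference of COM from NC was -0.70 (SE 0.11) on the log2 scale, or -0.40 with size factors, beside a median of -0.27 over all genes. That of COM+Met from COM was only -0.11 (SE 0.06). Its relative Nfatc3 lay at a similar level, with means of 13.7, 12.1 and 10.8 FPKM in NC, COM and COM+Met, and Nfatc2 at 2.50, 1.13 and 0.998 FPKM. Nfatc2 passed the adjusted p in COM against NC but not the 2-fold limit (log2 fold change -0.72, SE 0.15, adjusted p = 0.00139 from limma), and Nfatc3 did not pass (adjusted p = 0.21 from limma).

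Dcstamp encodes the membrane protein without which osteoclast precursors stay single. NC-1 to NC-4 measured 34.5, 41.3, 33.2 and 32.7 FPKM, but NC-5 and NC-6 only 5.09 and 4.15 FPKM. COM-1 to COM-3 measured 15.3, 20.3 and 17.2 FPKM, and COM-4 to COM-6 again less, with 3.25, 4.26 and 2.43 FPKM. NC and COM thus each held a high and a low set of samples, and the groups overlapped. In COM+Met all 6 samples lay at the low level, with 2.87, 3.25, 4.78, 3.73, 3.86 and 4.41 FPKM, a range that also covered NC-6, COM-4 and COM-5. The log2 difference of COM from NC was -1.13 (SE 0.75). It was -2.03 without NC-5 and NC-6, -0.07 without COM-4, COM-5 and COM-6, and -0.97 without all 5 of these samples. That of COM+Met from COM was -0.89 (SE 0.49) and -1.96 without COM-4, COM-5 and COM-6, so that its size rests on which COM samples are used. That of COM+Met from NC was -2.03 (SE 0.58), and -2.93 without NC-5 and NC-6.

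Ocstamp, the partner of Dcstamp in fusion, was far lower on the same FPKM scale. Its lowest, median and highest values were 0.195, 0.284 and 0.507 FPKM in NC and 0, 0.0537 and 0.181 FPKM in COM, without overlap. In COM+Met it was listed at 0 in 5 of 6 samples and at 0.0107 FPKM in COM+Met-1. It lay below the filter, and its log2 difference of COM from NC moved from -0.31 to -1.41 with a pseudocount of 0.1 in place of 1.

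Atp6v0d2 encodes the d2 subunit of the V-ATPase, the pump that acidifies the space under an osteoclast, and it also takes part in fusion. It was the second most abundant member in NC, where NC-1 to NC-4 measured 188, 205, 189 and 208 FPKM, and NC-5 and NC-6 339 and 360 FPKM. The 6 COM samples measured 67.8, 58.7, 53.0, 35.8, 34.3 and 58.8 FPKM, in replicate order. The 6 COM+Met samples measured 77.9, 109, 101, 93.0, 93.4 and 102 FPKM. None of the 3 groups overlapped with another, and the order of levels was NC, COM+Met, COM. The mean of COM was 4.83-fold lower than that of NC (log2 difference -2.24, SE 0.24; -1.71 without NC-5, NC-6, COM-4, COM-5 and COM-6). The mean of COM+Met was 1.87-fold higher than that of COM (log2 difference 0.92, SE 0.18) and 2.59-fold lower than that of NC. NC-5 and NC-6, the lowest NC samples in Dcstamp, were the highest in Atp6v0d2.

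The d1 subunit, which most cells use in the place of d2, varied less. Atp6v0d1 averaged 150 ± 5.51 FPKM in NC, 89.0 ± 16.6 FPKM in COM and 98.9 ± 1.97 FPKM in COM+Met (SD, n = 6 each). On the per-length scale, mean d2 was thus above mean d1 in NC, below it in COM and close to it in COM+Met. Atp6v0d1 passed the adjusted p but not the 2-fold limit in COM against NC (log2 fold change -0.76, SE 0.12, adjusted p = 0.000252 from limma), and it did not pass in COM+Met against COM (adjusted p = 0.356 from limma).

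Acp5 encodes tartrate-resistant acid phosphatase, the stain by which osteoclasts are counted, and it was the only member higher in COM than in NC. The 6 NC samples measured 24.7, 23.3, 27.1, 24.9, 20.9 and 18.4 FPKM, in replicate order. COM-1 to COM-3 reached 254, 280 and 288 FPKM, COM-4 and COM-5 68.0 and 68.4 FPKM, and COM-6 27.9 FPKM, just above the highest NC value of 27.1 FPKM. The COM+Met samples, with 49.1, 61.8, 64.5, 66.9, 59.2 and 75.1 FPKM, lay above NC, below COM-1 to COM-3 and in the range around COM-4 and COM-5. The mean of COM was 7.08-fold that of NC (log2 difference 2.31, SE 0.58), and the log2 difference was 3.51 without COM-4, COM-5 and COM-6. That of COM+Met from NC was 1.40 (SE 0.11). The difference of COM+Met from COM, -0.91 (SE 0.58), became -2.12 without COM-4, COM-5 and COM-6.

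Ctsk encodes cathepsin K, the protease that digests bone collagen. Its lowest, median and highest values were 126, 168 and 244 FPKM in NC. COM-1 to COM-6 measured 94.9, 67.1, 62.4, 47.4, 37.2 and 24.97 FPKM. The COM+Met samples lay between 51.0 and 55.3 FPKM, except COM+Met-1 with 30.1 FPKM. All samples with crystals lay below all NC samples, and COM+Met fell within the range of COM. The mean of COM was 3.20-fold lower than that of NC (log2 difference -1.75, SE 0.31; -1.04 without NC-5, NC-6, COM-4, COM-5 and COM-6). That of COM+Met differed from COM by -0.08 (SE 0.30), by 0.05 without COM+Met-1, and by -0.60 without COM-4, COM-5 and COM-6. While Atp6v0d2 was higher in every COM+Met sample than in any COM sample, Ctsk was not.

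Spp1 encodes osteopontin, a secreted protein of bone matrix that also binds crystals of calcium oxalate, and it was the most abundant member, ranking 31, 63 and 41 of the table by its mean in NC, COM and COM+Met. NC samples were close together, from 933 to 1008 FPKM (median 988). COM-1 to COM-3 measured 577, 426 and 385 FPKM, below every NC sample, whereas COM-4 to COM-6 measured 917, 944 and 1176 FPKM. COM+Met ran from 898 to 1248 FPKM (median 959) and overlapped with NC and COM. The log2 difference of COM from NC was -0.53 (SE 0.27) and -1.10 without COM-4, COM-5 and COM-6. That of COM+Met from COM was 0.56 (SE 0.28) and 1.13 without COM-4, COM-5 and COM-6. COM+Met differed from NC by only 0.03 (SE 0.07), or by 0.35 with size factors. The COM samples with low Spp1 were those with high Acp5 and Dcstamp.

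Cdh1 encodes E-cadherin, the adhesion protein of epithelia. Its lowest, median and highest values were 9.45, 12.004 and 17.8 FPKM in NC. They were 0.317, 0.521 and 0.954 FPKM in COM and 0.031, 0.0518 and 0.156 FPKM in COM+Met. The 3 groups did not overlap, in the order NC, COM, COM+Met. The mean of NC was 23.3-fold that of COM and 186-fold that of COM+Met. These ratios rest on values below 1 FPKM, and the log2 difference of COM from NC moved from -3.14 (SE 0.15) to -4.34 with a pseudocount of 0.1 and to -1.67 with one of 5. The highest mean of another epithelial marker in NC was 0.879 FPKM for Epcam, against 12.9 FPKM for Cdh1. The sum of the 16 tubular epithelial markers was also highest in NC (0.617 to 2.80 FPKM, 0.115 to 0.475 in COM and 0.00637 to 0.229 in COM+Met). Which cells the Cdh1 reads came from was not tested.

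**Figure D2:**
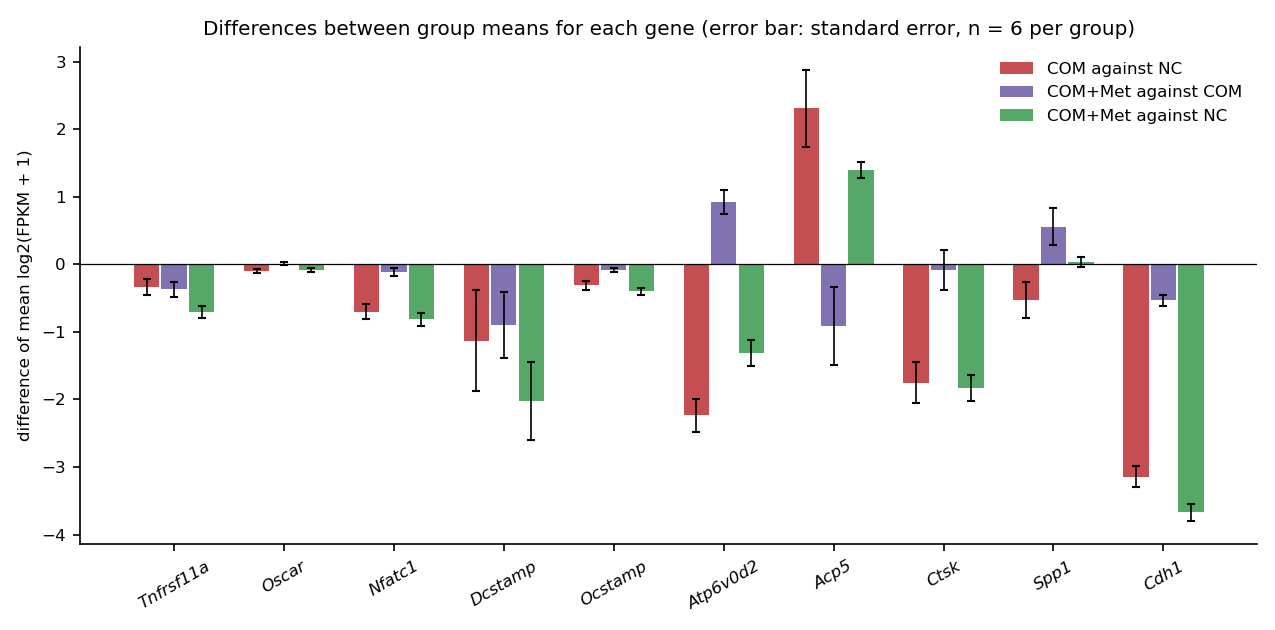
Difference between group means of log2(FPKM + 1) (vertical axis) for each of the 10 genes (horizontal axis) in the 3 comparisons, with bars from 0 and error bars of 1 standard error (n = 6 per group). Acp5 is the only gene above 0 in COM against NC (2.31), and Atp6v0d2 (0.92) and Spp1 (0.56) have the tallest bars above 0 in COM+Met against COM.

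The members did not follow a single pattern over the 18 samples. As a measure of likeness, log2(FPKM + 1) was centred on the mean of each gene and the absolute difference between 2 genes was averaged over the samples, which share their libraries. Among the 8 members with a mean of at least 1 FPKM, Nfatc1 and Tnfrsf11a were closest (0.20), followed by Atp6v0d2 and Ctsk (0.48). Acp5 and Cdh1 were farthest apart (2.34). Genes that vary little are close to each other by this measure.

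**Figure D3:**
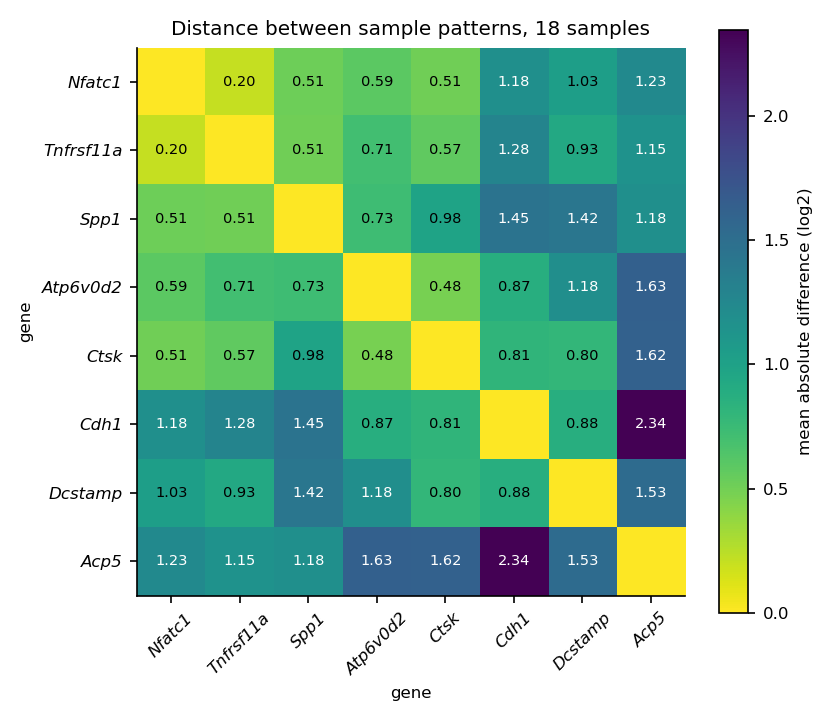
Mean absolute difference, on the log2 scale, between the centred patterns of each pair of 8 members over 18 samples (both axes list genes, and darker colours mean less alike). Nfatc1 and Tnfrsf11a are the closest pair at 0.20, and Acp5 lies at 1.15 to 2.34 from the other genes.

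Among all 10751 genes of that mean level, those closest to Nfatc1 were Laptm5 (0.068) and Elovl5 (0.081), and those closest to Tnfrsf11a were Arpc5 (0.081) and Ino80c (0.085). Dcstamp was closest to the MHC class II genes H2-Eb1 (0.19) and H2-Aa (0.23). Cdh1 was closest to Ckap2l (0.17) and Kif11 (0.19), 2 genes of the mitotic spindle. Like Cdh1, both averaged below 1 FPKM in COM and COM+Met, as did Cpa3 (0.20), and no shared role is read from this likeness. Ctsk was closest to Gna15 (0.18) and Aldh9a1 (0.20), Atp6v0d2 to Tbc1d16 (0.22) and Adk (0.25), Spp1 to Nr1d2 (0.13) and Lilr4b (0.17), and Acp5 to Tmem119 (0.37) and Cacnb3 (0.40).

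The other genes of the pathway were taken from 10 hand-written lists of 139 genes, none of them a member. The lists were written with earlier results of these data known, so nothing is read from the shares below. The p-values of list genes carry the same limit. In COM against NC, 117 were tested, of which 9 were called higher and 16 lower, or 21.4% against 17.7% of all genes tested. Their median log2 fold change was -0.13, against -0.27 for all genes. With size factors the split was 16 higher and 9 lower. In COM+Met against COM, 3 of 113 were called higher and 5 lower (7.08% against 2.22% of all genes), with a median of -0.04. In COM+Met against NC, 11 of 116 were called higher and 20 lower (26.7% against 19.3%), with a median of -0.15, and 17 higher and 14 lower with size factors.

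**Figure D4:**
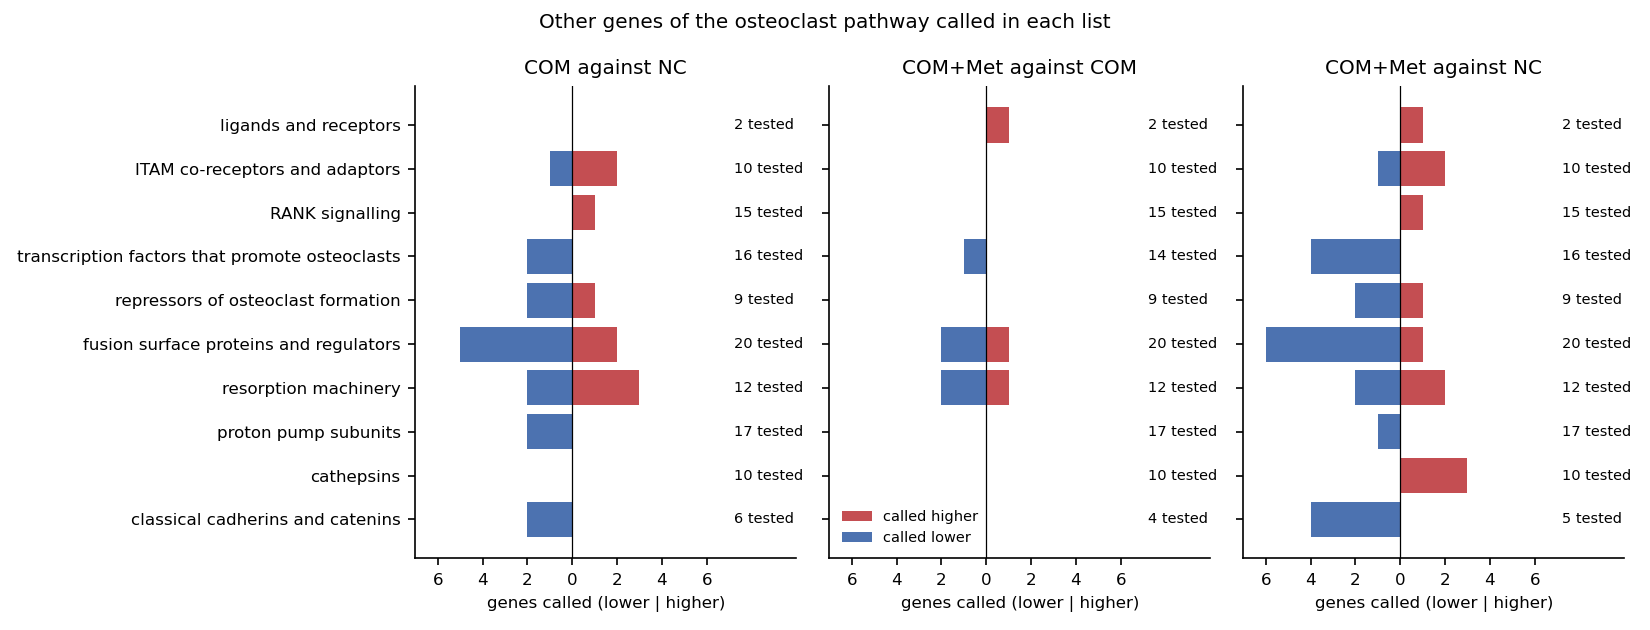
Number of genes called higher (right of 0) and lower (left of 0) in each of the 10 lists of other pathway genes (vertical axis) for the 3 comparisons, with the number tested beside each bar. In COM against NC the fusion list has the most calls, 2 higher and 5 lower of 20 tested.

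Among the ITAM receptors and adaptors, 2 of 10 rose and 1 fell in COM. Blnk, an adaptor of immune receptors, rose from 3.81 ± 1.94 to 36.6 ± 7.22 FPKM (SD, n = 6 each), and it stayed at 40.9 ± 3.33 FPKM in COM+Met. Its log2 fold change was 3.08 in COM against NC (SE 0.29, adjusted p = 2.97e-06 from limma). In the RANK signalling list, only Src, the kinase of the osteoclast's sealing ring, was called among 15 tested, with 6.02 ± 3.99 FPKM in NC and 26.0 ± 9.67 FPKM in COM (SD, n = 6 each, log2 fold change 2.09, SE 0.47, adjusted p = 0.00264 from limma; 1.44 without NC-5 and NC-6). Neither gene passed in COM+Met against COM (adjusted p = 0.371 for Blnk and 0.198 for Src from limma).

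Of 16 transcription factors that promote osteoclasts, 2 fell in COM. Myc, with 11.3 ± 1.92 FPKM in NC, fell to 0.328 ± 0.153 FPKM (SD, n = 6 per group), a log2 fold change of -3.20 (adjusted p = 2.31e-09 from limma). Myc passed the filter only through its level in NC, and its change was -4.80 with a pseudocount of 0.1 and -1.60 with one of 5. Fos, a partner of NFATc1, had a log2 fold change of -1.87 (SE 0.11, adjusted p = 6.38e-08 from limma). Of 9 repressors of osteoclast formation, 1 rose and 2 fell. Id1 and Id3, inhibitors of helix-loop-helix factors, had log2 fold changes of -2.26 (SE 0.33) and -2.25 (SE 0.26), with adjusted p of 0.000133 and 1.86e-05 from limma. In COM+Met against NC they were lower again, at -2.96 and -3.13. In COM+Met against COM, Fosl2 was called lower at an adjusted p of 0.0391 from limma, with a log2 fold change of -1.06 (SE 0.31). The call of Fosl2 was lost with the replicate block (0.0563), without a filter (0.0682), with a pseudocount of 5 and without any 1 of COM-1 to COM-3 or COM+Met-2 to COM+Met-6. It was kept with size factors (0.0143) and in a fit of all 18 samples (0.0141), and without COM-4, COM-5 and COM-6 the change was -1.78 (adjusted p = 2.68e-07 from limma). Those 3 samples were set apart on these same data, so this smaller p-value adds no support to the call.

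In the fusion list, 2 of 20 rose and 5 fell in COM, and 1 rose and 2 fell in COM+Met against COM. Itgb3, the β3 integrin chain by which osteoclasts attach, lay between 8.23 and 15.3 FPKM in NC, 1.29 and 3.10 FPKM in COM, and 6.57 and 8.25 FPKM in COM+Met. It fell in COM (log2 fold change -1.82, SE 0.17, adjusted p = 3.7e-06 from limma) and rose in COM+Met against COM (1.36, SE 0.13, adjusted p = 5.66e-05 from limma). Cd36, a scavenger receptor with a part in fusion, fell in COM (log2 fold change -1.24, adjusted p = 0.00646 from limma) and again in COM+Met against COM (-1.41, SE 0.27, adjusted p = 0.00507 from limma). Adam8, a surface protease, fell in the latter comparison (-1.06, adjusted p = 0.00111 from limma), and its change was just under 2-fold without COM-4 (-0.98). Cd200 was called higher in COM+Met against NC (1.52, SE 0.25, adjusted p = 0.000116 from limma). Its mean was 6.40 FPKM in NC and already 19.0 FPKM in COM, against 18.4 FPKM in COM+Met.

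In the resorption and proton pump lists, genes of the acid route moved in both directions. Clcn7, the chloride transporter that balances the proton pump, rose from 57.1 ± 8.14 FPKM in NC to 179 ± 39.3 FPKM in COM (SD, n = 6 each, log2 fold change 1.60, SE 0.17, adjusted p = 9.13e-06 from limma), and it averaged 271 ± 7.92 FPKM in COM+Met. Atp6v0a1, a membrane subunit of the pump, measured 103 ± 4.82 FPKM in NC and fell to 27.6 ± 8.54 FPKM (SD, n = 6 per group), a log2 fold change of -1.92 (adjusted p = 2.61e-06 from limma). It was 1 of 2 called among 17 other pump subunits, both lower. Car2, the carbonic anhydrase that supplies protons, fell in COM+Met against COM (-1.16, SE 0.14, adjusted p = 0.000311 from limma), while Ckb, a creatine kinase, rose (1.12, SE 0.22, adjusted p = 0.00555 from limma), a change just under 2-fold without COM-6 (0.92).

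The metalloproteinase values moved with the samples that stood apart. Mmp9 lay between 0.498 and 8.64 FPKM in NC, 5.80 and 61.1 FPKM in COM (median 31.6), and 3.62 and 4.66 FPKM in COM+Met. Its log2 fold change in COM against NC, 2.06 (SE 0.72, adjusted p = 0.0288 from limma), was 1.37 without NC-5 and NC-6 (adjusted p = 0.155 from limma), and the call was also lost without a filter or without any 1 of NC-5, NC-6 and COM-1 to COM-3. Without COM-4, COM-5 and COM-6 the change in Mmp9 was 3.58 (adjusted p = 0.000801 from limma), and without all 5 samples that stood apart it was 2.89 (adjusted p = 2.83e-07 from limma). In COM+Met against COM it was -2.06 (adjusted p = 0.0399 from limma), a call lost with the replicate block (0.0614), without a filter, with a pseudocount of 5 and without any 1 of COM-1 to COM-3 or of the COM+Met samples. Without COM-4, COM-5 and COM-6 it was -3.57 (adjusted p = 2.01e-11 from limma). COM-4 to COM-6 were set apart on these same data, so the smaller p-values without them add no support to the calls of Mmp9. Mmp14 was called higher in COM (1.78, SE 0.70, adjusted p = 0.0458 from limma) and in COM+Met against NC (1.84, adjusted p = 0.0261 from limma). Without NC-5 and NC-6 these were 0.60 and 0.66, and neither was called, and without all 5 samples that stood apart the change in COM was 0.93, just under 2-fold. The call in COM was also lost without a filter, without COM-4 to COM-6 together (2.11, adjusted p = 0.0918 from limma) and without any 1 of NC-4 to NC-6 or COM-1 to COM-5, and that in COM+Met without NC-5.

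Other cathepsins did not follow Ctsk. In COM against NC, 6 of the 10 tested passed the adjusted p of limma, all higher, but 0 reached the 2-fold limit. Of all 10900 genes, 5805 passed in either direction and 1382 were higher (12.7%). In COM+Met against NC all 10 passed, all higher, and 3 were called, while of all 10786 genes 8114 passed in either direction and 2080 were higher (19.3%). Ctsb was among them, with 651 ± 22.0 FPKM in NC and 1756 ± 84.0 FPKM in COM+Met (SD, n = 6 each, log2 fold change 1.43, adjusted p = 4.32e-11 from limma), beside Ctsz (1.46) and Ctsh (1.26). Among cadherins and catenins, 2 of 6 were called in COM, both lower. Jup, the junction protein plakoglobin that binds E-cadherin, averaged 16.9 ± 2.58 FPKM in NC and fell to 3.49 ± 1.77 FPKM (SD, n = 6 per group; log2 fold change -2.08, SE 0.23, adjusted p = 1.51e-05 from limma), and it averaged 1.58 ± 0.254 FPKM in COM+Met.

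Csf1, the gene of M-CSF, was called higher in COM+Met, with 63.5 to 122 FPKM against 13.98 to 51.4 FPKM in COM and 18.7 to 40.9 FPKM in NC. Its log2 fold change was 1.53 against COM (SE 0.35, adjusted p = 0.0127 from limma), or 2.36 without COM-4, COM-5 and COM-6, and 1.38 against NC (SE 0.21, adjusted p = 6.7e-05 from limma). In COM against NC it did not pass (adjusted p = 0.741 from limma). The cultures had also been given M-CSF.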

How the data were processed

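Levels were measured by RNA-seq in 18 samples, 6 per group. The authors deposited FPKM values, with a column for each sample, and all 18 columns were used. Bowtie 0.12.2 and the builds mm9 and mm8 appear in the submitters' processing notes. How FPKM were computed, and with which annotation, is not given in the sources used here. Depth is unknown: for genes under 0.5 FPKM, the ratio most often found between neighbouring samples held for at most 0.322% of them, which does not allow reads to be recovered, and no counting interval is given.

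Genes averaging 1 FPKM or more over the samples of a comparison were tested on log2(FPKM + 1) with limma 3.58.1 (trend) in R 4.3.3, each comparison in a fit of its own 12 samples, with Benjamini-Hochberg adjustment over all genes tested. The procedure was tested on simulated data with independent noise. Those data held no samples that stood apart, so that feature of the real samples was not covered. For members, values and counts of calls are given, with no p-value. Promoters and positions were read with Python 3.11.15. Genes named besides the members were the 5 largest rises and falls among called list genes in each comparison, 3 paralogs, 4 ligand or receptor genes, the 2 genes most like each member in pattern, and list genes named as examples after their values were seen (Fos, Ctsb, Ctsz and Ctsh). The members and lists were chosen with earlier results of these data known. Alternatives were other pseudocounts, filters and scalings, a replicate block, 1 fit of all 18 samples, and samples left out, with NC-5, NC-6 and COM-4 to COM-6 left out together added after the data had been seen.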

Additional observations from a re-analysis of the deposited data

Results flagged for a closer look

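Among 30 groups of 6 values, 1 for each member and group, 3 held a sample far from the others by Dixon's ratio of its gap to the range; chance marks about 1 in 20 such groups. All 3 were values of COM+Met-1, and 1 of them, Ocstamp, carries no weight. Ctsk measured 30.1 FPKM in it and 51.0 to 55.3 FPKM in the other COM+Met samples (ratio 0.827). Spp1 measured 1248 FPKM in it and 898 to 1025 FPKM in the others (ratio 0.639). Ocstamp was listed at 0.0107 FPKM in it and at 0 in the others (ratio 1), and any value above 0 gives this ratio when the others are all at 0. COM+Met-1 was the single lowest or highest COM+Met sample in 8 of the 10 members. By the same count NC-6 was so among NC samples in 7 and COM-6 among COM samples in 6. Without COM+Met-1, the log2 difference of COM+Met from NC was -1.70 for Ctsk and -0.03 for Spp1, against -1.83 and 0.03 with it.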

How the results depend on the processing

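The count of called genes moved by over 1.5 times under a few settings. With a pseudocount of 5 it was 980 in COM against NC (1926 as reported), 90 in COM+Met against COM (230) and 1117 in COM+Met against NC (2078), and 2 pathway list genes were called in COM+Met against COM (8). With a pseudocount of 0.1, 370 genes were called in COM+Met against COM. Without COM-4, COM-5 and COM-6, that comparison called 771 genes and 13 list genes. With a pseudocount of 5, Itgb3, Car2, Ckb and Adam8 changed by less than 2-fold in that comparison. The other counts stayed within 1.5 times, and no called gene named above changed direction. Leaving out 1 sample gave 1727 to 2073, 182 to 300 and 2015 to 2136 called genes in the 3 comparisons, and 21 to 28, 6 to 8 and 29 to 33 list genes. Under size factors by the median of ratios, higher calls made up a share that went from 33.9% to 51.9% in COM against NC and from 29.4% to 46.6% in COM+Met against NC.

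Same-numbered samples did not deviate together (correlations of -0.222 to 0.0569). A weaker pairing could not be seen this way, so whether the replicate numbers pair samples is not known. With the replicate block, 1920, 202 and 2080 genes and 25, 6 and 31 list genes were called.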
